A study of Homo sapiens with 6 samples.

Results

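The genes described here are 34 members of the SREBP-driven programme of sterol and fatty acid synthesis, taken by symbol from the 69292 gene IDs of the count table. All 34 were found and all 34 had enough counts to be tested. Their RNA was measured in 6 libraries from MDA-MB-231 cells, a mesenchymal line from a triple-negative human breast cancer, in 3 groups of 2. One group is a ridaforolimus-resistant derivative grown for months with 30 µM ridaforolimus, another an everolimus-resistant derivative grown likewise with 20 µM everolimus, and the last the parental line. Per the labels' protocol the parental cells had no drug, while their treatment field reads DMSO. Both drugs are rapamycin analogs that act on the mTOR kinase, and the study asked which expression changes go with acquired resistance to them. Each resistant line was a single derivative, so that resistance, the drug in the medium and drift in culture cannot be told apart. No label says that the replicates of a group were separate cultures, and p-values then measure only the spread between these libraries. In bulk RNA, fewer cells expressing a gene and less RNA per cell cannot be told apart either.

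Sterol regulatory element-binding proteins (SREBPs) are transcription factors made as membrane-bound precursors in the endoplasmic reticulum. When sterols are scarce, the escort protein SCAP carries them to the Golgi, where proteases release the active part. When sterols are plentiful, the INSIG proteins hold SCAP back. SREBF2 encodes the factor best known for the sterol genes and SREBF1 the one best known for fatty acid genes, and mTORC1 is known to promote the activity of both. The members run from the mevalonate pathway, through squalene and the later sterol steps, to the fatty acid synthase, elongases and desaturases.

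Promoter sequences are shown for 6 members because the known binding sites of SREBPs and of their partner NF-Y are short motifs near the start of transcription. The windows searched come from RefSeq on GRCh38.p14 and reach from 250 bases before to 50 bases after the start. Only a stretch of each window is printed, of 35 to 150 bases, read 5′ to 3′ on the gene's strand, and a window may hold further matches outside it, as that of HSD17B7 does for CCAAT. Of the 34 members 30 had an entry. ACAT2, FDFT1, SQLE and FASN had none. Capitals mark TCACNCNAC, a loose form of the sterol regulatory element, CCAAT, the NF-Y motif, or its complement ATTGG, and CACGTG, an E-box. Both strands were searched.
INSIG1, chr7:155297698-155297847, plus strand: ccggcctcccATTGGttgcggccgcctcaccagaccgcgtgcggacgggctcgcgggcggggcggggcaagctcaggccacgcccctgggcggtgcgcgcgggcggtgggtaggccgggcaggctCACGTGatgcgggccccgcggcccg
HMGCS1, chr5:43313493-43313582, minus strand: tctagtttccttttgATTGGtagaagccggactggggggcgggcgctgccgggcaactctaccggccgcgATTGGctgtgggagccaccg
FDPS, chr1:155308681-155308825, plus strand: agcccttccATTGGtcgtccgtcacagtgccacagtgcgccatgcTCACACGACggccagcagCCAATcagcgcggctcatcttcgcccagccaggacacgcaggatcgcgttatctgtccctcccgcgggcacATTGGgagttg
SREBF2, chr22:41832960-41833014, plus strand: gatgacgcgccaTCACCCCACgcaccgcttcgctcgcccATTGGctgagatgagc
FADS2, chr11:61815968-61816002, plus strand: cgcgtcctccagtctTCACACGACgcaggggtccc
HSD17B7, chr1:162790592-162790661, plus strand: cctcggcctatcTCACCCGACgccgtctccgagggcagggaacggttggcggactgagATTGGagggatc
INSIG1 and HMGCS1 are shown as the members with the highest values in the everolimus line relative to parental cells, and the other 4 as the members whose window holds TCACNCNAC. That motif stood in 4 of 30 member promoters (13.3%) and in 2.499% of the 12406 promoters of genes tested here. CCAAT stood in 20 of 30 member promoters (66.7%), against 36.3% of the promoters of tested genes. CACGTG stood in 5 (16.7%, against 9.49%), and GGGCGG, the Sp1 motif, in 27 (90%, against 66.4%). The stricter form TCACNCCAC stood in 1 member promoter, that of SREBF2 (3.33%, against 1.19%), and every match to it is also a match to TCACNCNAC. A match is a string of letters and not a measured binding site.

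Depth ran from 13134567 to 15556246 counts per library, and members had between 32 and 14528 counts. The 34 members took 0.297% and 0.280% of the counts in the ridaforolimus libraries, 0.288% and 0.500% in the everolimus libraries and 0.236% and 0.301% in the parental libraries. Everolimus replicate 2 therefore stands apart from the other 5 libraries on these genes, and values with and without it are given below. The 6 markers of the line (VIM, CD44, AXL, MSN, CAV1 and ZEB1) were expressed in every library, with summed levels of 4048 and 4035 CPM (counts scaled to the TMM-adjusted library size and set to a common total) in the ridaforolimus, 2233 and 3676 CPM in the everolimus and 2584 and 2644 CPM in the parental libraries. Of 7 luminal epithelium markers 5 were tested, with summed levels, mostly of the keratins KRT8 and KRT18, of 404 and 398 CPM in the ridaforolimus, 503 and 625 CPM in the everolimus and 621 and 547 CPM in the parental libraries. The adhesion gene CDH1 of that list had 0 to 3 counts, and PTPRC, which marks blood cells, had 0 to 7. Of 6 blood markers 1 other was tested, at 0.331 to 2.14 CPM. Of 6 endothelium markers 4 were tested, with summed levels of 5.49 to 16.4 CPM over the libraries. Of 7 fibroblast markers 1 was tested (5.14 to 15.6 CPM), and of 5 adipocyte markers 2 (73.3 to 149 CPM summed).

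The sterol and fatty acid genes were high together in a single library, everolimus replicate 2. Of the 34 members 28 had their highest level of the 6 libraries there, while this library was the highest for 19.9% of all 21223 genes tested. The median member, as log2 CPM minus the gene's mean over the 6 libraries, stood at 0.03 and -0.28 in the ridaforolimus libraries, at -0.13 and 0.83 in the everolimus libraries and at -0.30 and -0.0023 in the parental libraries. The summed level of the members was 2975 and 2748 CPM in the ridaforolimus, 2739 and 5143 CPM in the everolimus and 2441 and 3083 CPM in the parental libraries. Everolimus replicate 1 thus lay within the range of the parental libraries, and replicate 2 above all others. Members at least 2-fold over every other library in everolimus replicate 2 numbered 9 of 34, namely INSIG1 (4.18-fold), HMGCS1 (3.34-fold), FADS2 (2.65-fold), IDI1 (2.59-fold), SQLE (2.34-fold), FDFT1 (2.29-fold), DHCR7 (2.19-fold), FASN (2.13-fold) and ACAT2 (2.05-fold). FADS1 (1.997-fold, just under the limit) and LSS (1.99-fold) came next. Of all genes tested 57 (0.269%) did this.

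**Figure D1:**
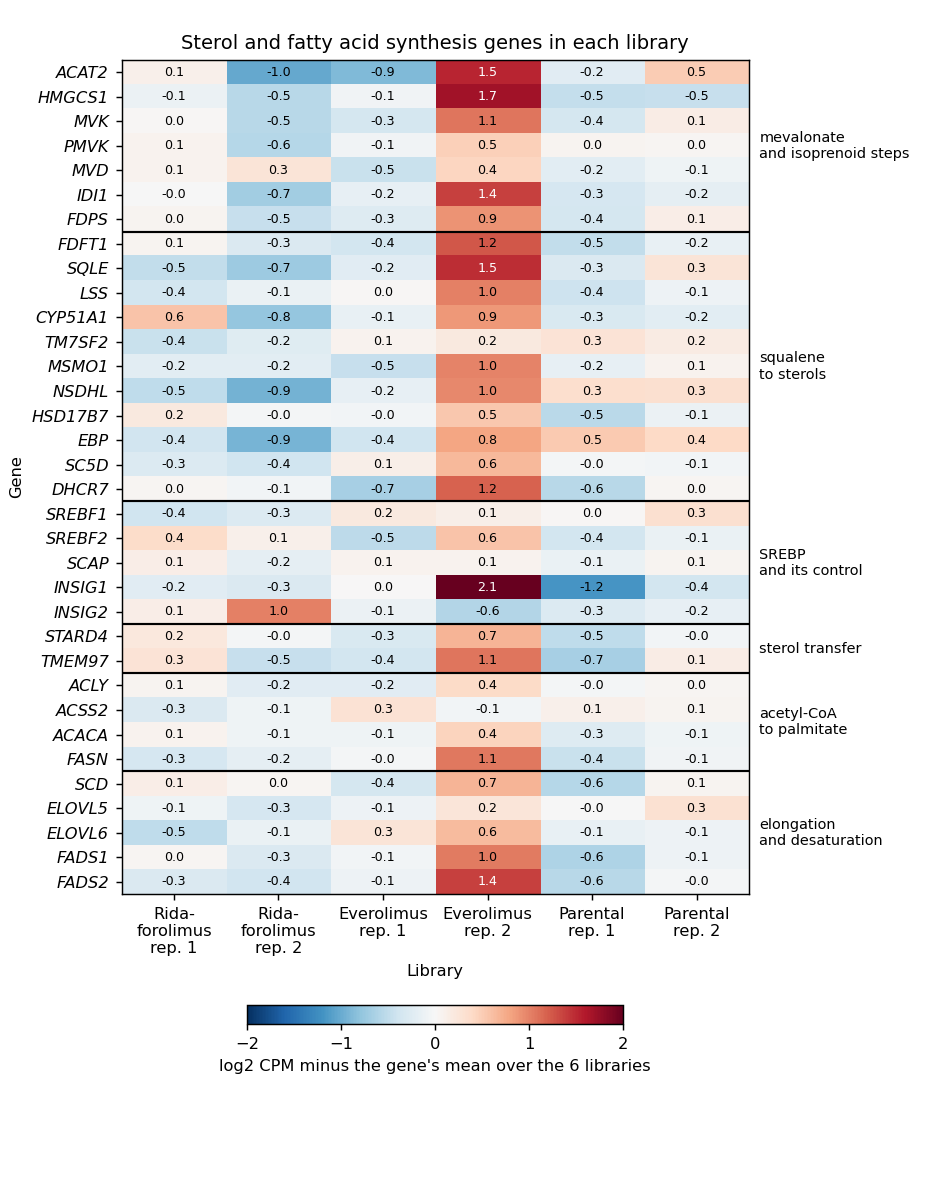
Level of each of the 34 members (rows, grouped by role) in each of the 6 libraries (columns), as log2 CPM minus the gene's mean over the 6 libraries. Colour and number give the value. The column of everolimus replicate 2 is the highest for 28 members, with INSIG1 and HMGCS1 the darkest.

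Replicates differed on these genes in the other groups too, by less. In the everolimus line replicate 2 exceeded replicate 1 for 30 of 34 members, by a median of 1.06 on the log2 scale, and by more than 1 for 19 of 34 (55.9%, against 12.8% of all genes). In the ridaforolimus line replicate 2 exceeded replicate 1 for 9 of 34, with a median gap of -0.24. In the parental line it did so for 28 of 34, with a median gap of 0.27. A list of 10 cell division genes, among them MKI67 and TOP2A, moved with the same libraries. Its median centred log2 CPM was 0.19 and -0.69 in the ridaforolimus, -0.36 and 0.67 in the everolimus and -0.15 and 0.33 in the parental libraries, and its part in the result was not tested.

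**Figure D2:**
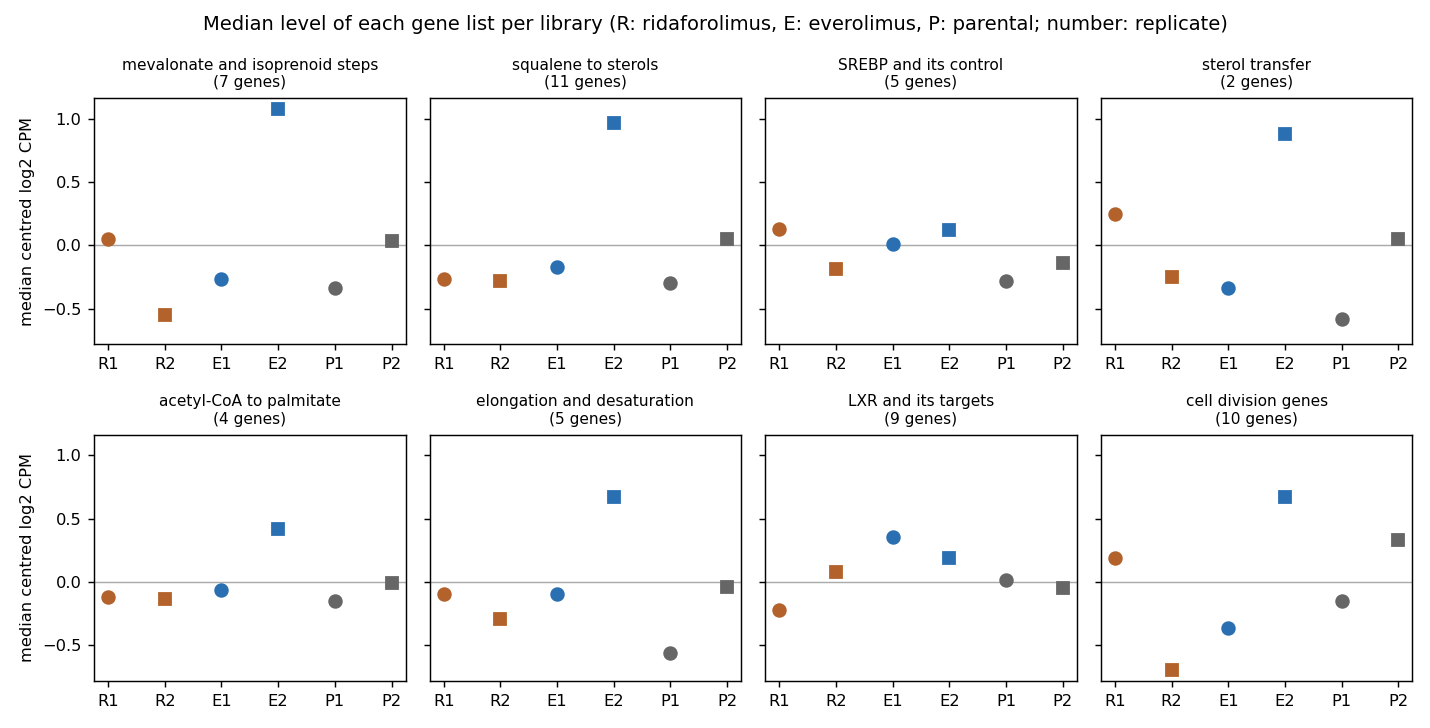
Median centred log2 CPM (vertical axis) of each role of the members, of LXR with its targets and of 10 cell division genes, in each library (R ridaforolimus, E everolimus, P parental, with the replicate number; circles replicate 1, squares replicate 2). E2 is the highest point in all roles of the members but SREBP and its control, where R1 (0.13) and E2 (0.12) are level, and in the cell division genes.

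The mevalonate genes, which turn acetyl-CoA into the isoprenoid units of sterols, were all 7 highest in everolimus replicate 2. HMGCS1, the HMG-CoA synthase at the head of the pathway (chromosome 5, 43289395 to 43313512, minus strand, GRCh38), had 22.7 and 16.7 CPM in the ridaforolimus libraries, 23.5 and 78.5 CPM in the everolimus libraries and 17.5 and 17.7 CPM in the parental libraries. Both everolimus libraries lay above both parental ones, replicate 1 by little and replicate 2 by far. Its log2 fold change, everolimus over parental, was 1.54 ± 0.48 (SE, 95% interval 0.43 to 2.64, adjusted p = 0.483, edgeR's quasi-likelihood test). Without everolimus replicate 2 it was 0.41, and without replicate 1 it was 2.16 (adjusted p = 0.0639).

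IDI1, the isomerase that makes dimethylallyl diphosphate, had 15.9 and 9.79 CPM in the ridaforolimus, 14.2 and 41.0 CPM in the everolimus and 12.5 and 14.0 CPM in the parental libraries. Its everolimus replicate 1 was level with parental replicate 2. ACAT2, the cytosolic thiolase of the first step, had 16.3 and 7.45 CPM in the ridaforolimus, 8.19 and 44.3 CPM in the everolimus and 12.99 and 21.6 CPM in the parental libraries, the widest gap between replicates of any member. Everolimus replicate 2 was the highest of the 6, while everolimus replicate 1 and ridaforolimus replicate 2 were the lowest. FDPS, the farnesyl diphosphate synthase whose promoter is shown above, had 40.5 and 28.3 CPM in the ridaforolimus, 32.7 and 73.4 CPM in the everolimus and 30.7 and 43.0 CPM in the parental libraries. MVK, PMVK and MVD are the kinases and the decarboxylase of mevalonate. Their log2 fold changes in the everolimus line were 0.62, 0.19 and 0.20, with groups that overlapped. In the ridaforolimus line over parental, the 7 genes spanned -0.54 to 0.31.

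Of the 11 genes from squalene to sterols, 10 were highest in everolimus replicate 2, the exception being TM7SF2. SQLE, the squalene monooxygenase that is a control point of the pathway, had 9.07 and 7.67 CPM in the ridaforolimus, 10.9 and 35.7 CPM in the everolimus and 10.4 and 15.3 CPM in the parental libraries. The ridaforolimus libraries lay below the 4 others, and everolimus replicate 1 lay between the parental ones. FDFT1, the squalene synthase, had 83.2 and 66.0 CPM in the ridaforolimus, 62.6 and 190.4 CPM in the everolimus and 56.8 and 72.4 CPM in the parental libraries. LSS, the lanosterol synthase, had 55.6 and 65.8 CPM in the ridaforolimus, 72.7 and 145 CPM in the everolimus and 53.7 and 66.8 CPM in the parental libraries, so that both everolimus libraries were above both parental ones (0.85 ± 0.31, adjusted p = 0.523, edgeR). DHCR7, the reductase of the last step to cholesterol, had 55.6 and 52.2 CPM in the ridaforolimus, 34.2 and 122 CPM in the everolimus and 36.8 and 55.9 CPM in the parental libraries.

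The lowest fold changes of any members in the ridaforolimus line over parental were those of EBP and NSDHL. NSDHL, a dehydrogenase in the removal of the C4 methyl groups (chromosome X, 152830967 to 152869729, plus strand, GRCh38), had 13.2 and 9.72 CPM in the ridaforolimus, 16.7 and 37.0 CPM in the everolimus and 23.9 and 23.6 CPM in the parental libraries. EBP, the sterol isomerase (chromosome X, 48521158 to 48528716, plus strand), had 7.93 and 5.33 CPM in the ridaforolimus, 7.82 and 17.9 CPM in the everolimus and 14.9 and 13.7 CPM in the parental libraries. For both genes the ridaforolimus libraries lay below both parental libraries, and the everolimus libraries lay on either side of them. The log2 fold changes, ridaforolimus over parental, were -1.05 ± 0.37 for NSDHL (95% interval -1.89 to -0.21, adjusted p = 0.265, edgeR) and -1.11 ± 0.40 for EBP (-2.03 to -0.19, adjusted p = 0.277).

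NSDHL lies in a stretch of chromosome X whose genes were mostly low in the ridaforolimus line. Of the 249 tested genes beyond 90 Mb on that chromosome, 82.3% were below 0 in ridaforolimus over parental, with a median of -0.64. Up to 60 Mb, where EBP lies, the median of 243 genes was 0.04. Between 60 and 90 Mb the median of 96 genes was 1.43, with 1.04% below 0. The part of these neighbours in the value of NSDHL was not tested.

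TM7SF2, a sterol reductase, had 11.4 and 13.2 CPM in the ridaforolimus, 16.4 and 17.9 CPM in the everolimus and 19.0 and 17.5 CPM in the parental libraries. It was one of the few members with close everolimus replicates, and its ridaforolimus libraries were the lowest 2 (-0.57 ± 0.22 over parental, adjusted p = 0.295, edgeR). SC5D, the sterol desaturase, had 24.2 and 22.1 CPM in the ridaforolimus, 31.7 and 45.6 CPM in the everolimus and 28.4 and 27.96 CPM in the parental libraries. It was the member whose everolimus libraries lay above, and whose ridaforolimus libraries lay below, both parental libraries, and the lines differed by -0.74 ± 0.23, ridaforolimus over everolimus (adjusted p = 0.203). HSD17B7, a ketosteroid reductase, had 12.7 and 10.8 CPM in the ridaforolimus, 10.7 and 16.3 CPM in the everolimus and 7.56 and 10.2 CPM in the parental libraries, and was above parental in both lines in value. CYP51A1, the lanosterol demethylase, was the lowest member at 2.34 to 7.60 CPM. MSMO1, a methylsterol oxidase, had 18.6 and 51.6 CPM in the everolimus and 22.9 and 27.1 CPM in the parental libraries.

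Among the genes that control SREBPs, INSIG1 had the largest fold change of any member. INSIG1, which holds SCAP back and is itself an SREBP target (chromosome 7, 155297776 to 155310235, plus strand, GRCh38), had 15.5 and 14.7 CPM in the ridaforolimus, 18.2 and 76.0 CPM in the everolimus and 7.87 and 13.9 CPM in the parental libraries. The libraries of both resistant lines lay above both parental libraries, and everolimus replicate 2 far above all. The log2 fold change, everolimus over parental, was 2.11 ± 0.59 (95% interval 0.76 to 3.46, adjusted p = 0.437, edgeR), while DESeq2 gave an adjusted p of 0.0226. Without everolimus replicate 2 it was 0.73 (adjusted p = 0.628), and without replicate 1 it was 2.80 (adjusted p = 0.0639). Ridaforolimus over parental it was 0.46 ± 0.58 (adjusted p = 0.762).

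INSIG2, the second INSIG, had the opposite order between the lines. It had 23.9 and 44.2 CPM in the ridaforolimus, 20.3 and 14.5 CPM in the everolimus and 18.0 and 19.6 CPM in the parental libraries. The ridaforolimus libraries were the highest 2, and everolimus replicate 2 was the lowest of the 6. Its log2 fold change was 0.86 ± 0.32 for ridaforolimus over parental (adjusted p = 0.282, edgeR) and 0.97 ± 0.32 for ridaforolimus over everolimus (adjusted p = 0.229).

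The genes of both transcription factors had patterns of their own. SREBF1 had 90.8 and 99.0 CPM in the ridaforolimus, 138 and 131 CPM in the everolimus and 123 and 150.4 CPM in the parental libraries. Its ridaforolimus libraries were the lowest 2 (-0.52 ± 0.19 over parental, 95% interval -0.96 to -0.09, adjusted p = 0.273, edgeR), and its everolimus replicates lay within the parental range. SREBF2, with the sterol motif in the promoter shown above, had 193 and 161 CPM in the ridaforolimus, 104 and 223 CPM in the everolimus and 116 and 136 CPM in the parental libraries. Both ridaforolimus libraries lay above both parental ones (0.49 ± 0.33, adjusted p = 0.536), and the everolimus libraries were the lowest and the highest of the 6. SCAP, the escort, stayed between 120 and 150 CPM in the 6 libraries, with a log2 fold change of 0.11 ± 0.19 in the everolimus line (95% interval -0.34 to 0.55).

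Both sterol transfer genes were highest in everolimus replicate 2 and lowest in parental replicate 1. STARD4, which carries sterols between membranes, had 34.1 and 28.6 CPM in the ridaforolimus, 23.8 and 47.1 CPM in the everolimus and 20.7 and 28.4 CPM in the parental libraries. TMEM97, a membrane protein of the endoplasmic reticulum known as the sigma-2 receptor, had 30.3 and 18.2 CPM in the ridaforolimus, 19.3 and 52.9 CPM in the everolimus and 15.8 and 27.7 CPM in the parental libraries. For both, the everolimus libraries overlapped the parental ones.

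**Figure D3:**
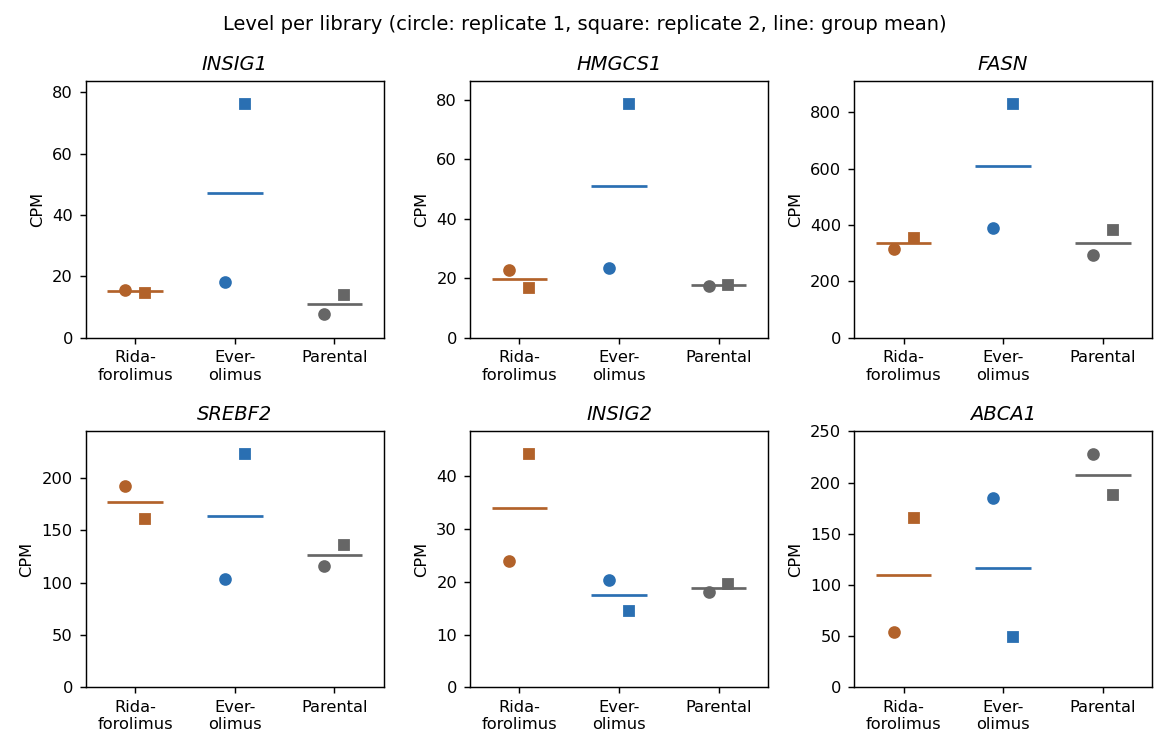
Level in CPM (vertical axis, from 0) of 5 members and of the cholesterol exporter ABCA1 in each library, by group; circles are replicate 1, squares replicate 2 and lines the mean of 2 libraries. INSIG1, HMGCS1 and FASN have 1 high point, everolimus replicate 2 (76.0, 78.5 and 828 CPM), INSIG2 is highest in ridaforolimus replicate 2 (44.2 CPM), and ABCA1 is lowest in everolimus replicate 2 (49.0 CPM).

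The 4 members with the highest levels per length of transcript were fatty acid genes, while ACACA (10.8 CPM per kilobase) and ELOVL6 (7.73 CPM per kilobase) lay lower. Per kilobase of exon, the mean over the 6 libraries was 117 CPM for SCD, 58.1 CPM for ACLY, 45.5 CPM for FASN and 35.3 CPM for ELOVL5, and the lowest member, CYP51A1, had 1.24 CPM. FASN, the fatty acid synthase that makes palmitate, had 316 and 353 CPM in the ridaforolimus, 388 and 828 CPM in the everolimus and 293 and 381 CPM in the parental libraries. Its everolimus replicate 1 was barely above parental replicate 2. The log2 fold change of 0.85 ± 0.34 (adjusted p = 0.534, edgeR) was 0.20 without everolimus replicate 2. ACLY and ACSS2 supply acetyl-CoA from citrate and from acetate. Their log2 fold changes in the everolimus line were 0.11 and 0.05, and that of the carboxylase ACACA was 0.38. ACSS2 was one of 4 members that were lower in everolimus replicate 2 (95.5 CPM) than in replicate 1 (122 CPM).

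FADS1 and FADS2, the desaturases of polyunsaturated fatty acids, are neighbours on chromosome 11 and were both highest in everolimus replicate 2. FADS2 had 120.4 and 113 CPM in the ridaforolimus, 138 and 379 CPM in the everolimus and 99.7 and 143 CPM in the parental libraries. FADS1 had 166 and 133 CPM in the ridaforolimus, 156 and 332 CPM in the everolimus and 106 and 152 CPM in the parental libraries. The log2 fold changes, everolimus over parental, were 1.09 ± 0.42 and 0.92 ± 0.36 (adjusted p = 0.531 for each, edgeR), and 0.17 and 0.27 without everolimus replicate 2. SCD, which makes oleate, had 662 and 621 CPM in the ridaforolimus, 471 and 960.3 CPM in the everolimus and 407 and 629 CPM in the parental libraries, so that all groups overlapped.

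ELOVL6, the elongase of palmitate, stood high in both everolimus libraries. It had 38.6 and 49.7 CPM in the ridaforolimus, 65.1 and 84.9 CPM in the everolimus and 49.5 and 50.7 CPM in the parental libraries. Ridaforolimus over everolimus, the log2 fold change was -0.76 ± 0.21 (95% interval -1.26 to -0.27). Its adjusted p of 0.167 (edgeR) was the lowest of any member in any comparison. Without everolimus replicate 2 the value was -0.56. ELOVL5, the elongase of polyunsaturated fatty acids, had 125 and 105 CPM in the ridaforolimus and 132 and 165 CPM in the parental libraries (-0.37 ± 0.21, adjusted p = 0.470).

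Set against parental cells, the everolimus line had higher values for 29 of 34 members, with a median log2 fold change of 0.53, against 0.02 over all genes tested. In 11 members both everolimus libraries lay above both parental ones, and in 0 below; of all genes, 20.6% and 20.5% did so. Of those 11, replicate 1 exceeded the higher parental library by a median of 0.07 and replicate 2 by a median of 1.12. By edgeR 0 members passed an adjusted p of 0.05 (background 0.00471% of genes), and 7 had an unadjusted p under 0.05 (background 8.79%), all 7 higher (4.26%) and 0 lower (4.53%): INSIG1, HMGCS1, LSS, ELOVL6, FADS2, FADS1 and FASN. DESeq2 called 1 member, INSIG1 (background 0.231% higher and 0.476% lower), and limma-voom called 0. Without everolimus replicate 2 the median was -0.05 and 16 members were above 0. Without replicate 1 it was 0.92.

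**Figure D4:**
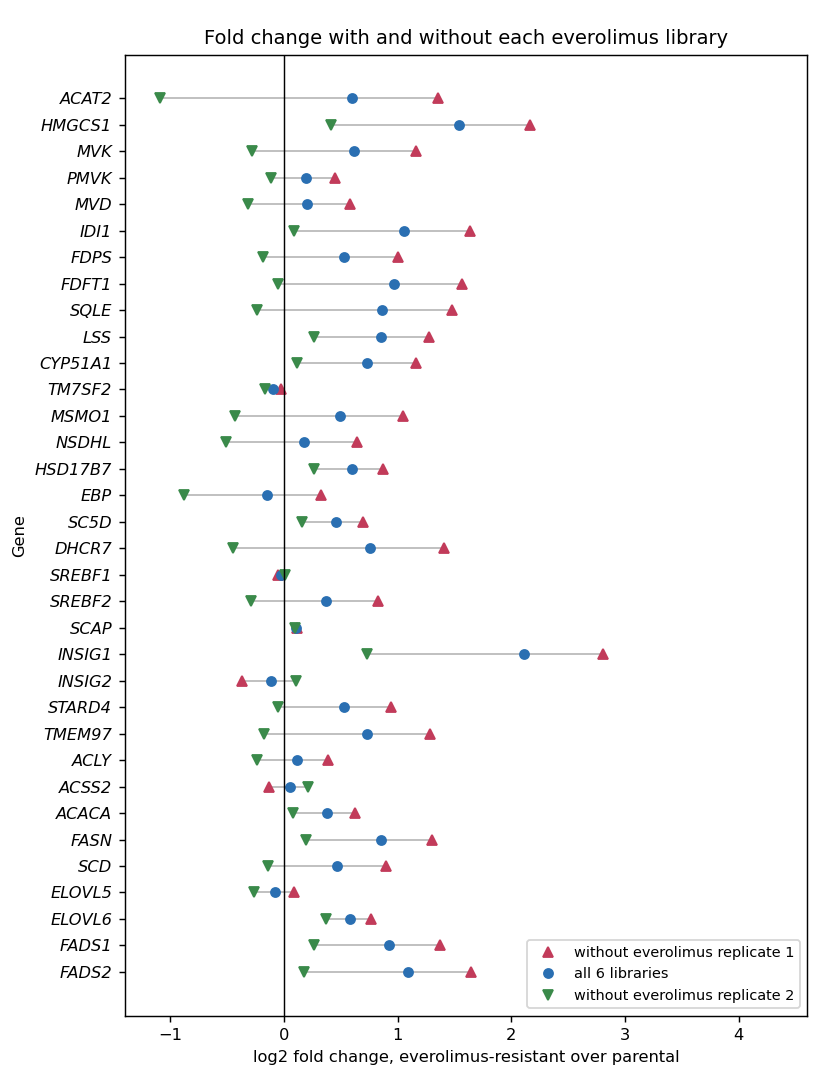
log2 fold change of each member, everolimus over parental (horizontal axis), with all 6 libraries (circles), without everolimus replicate 1 (triangles up) and without everolimus replicate 2 (triangles down). Without replicate 2 the members gather around 0 (median -0.05), with INSIG1 at 0.73 and ACAT2 at -1.09.

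Set against the same 2 parental libraries, the ridaforolimus line showed no common direction of the members. Of 34, 16 were above 0, with a median of -0.03 against 0.01 over all genes. Both ridaforolimus libraries lay above both parental ones in 6 members (background 25.1%) and below them in 9 (24.3%). The 6 were MVD, HSD17B7, SREBF2, INSIG1, INSIG2 and STARD4. The 9 were SQLE, TM7SF2, MSMO1, NSDHL, EBP, SC5D, SREBF1, ACSS2 and ELOVL5, of which 6 are among the 11 genes from squalene to sterols. Of those 11 genes 5 were above 0, with a median of -0.17. By edgeR 0 members passed (background 0.32%), as by DESeq2 (background 1.37% higher and 1.33% lower) and limma-voom (0.339%). At an unadjusted p under 0.05 there were 5 (background 14.5%), with INSIG2 higher (7.35%) and NSDHL, EBP, TM7SF2 and SREBF1 lower (7.17%).

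Between the lines, 31 of 34 members had lower values in the ridaforolimus line than in the everolimus line, with a median of -0.60 against -0.02 over all genes. The libraries did not overlap for 12 lower members (background 20.4%) and 1 higher one, INSIG2 (20.9%). By edgeR 0 members passed (background 0.744%), as by DESeq2 (1.79% higher and 1.31% lower) and limma-voom (0.532%), while 12 lower and 1 higher had an unadjusted p under 0.05 (background 6.56% and 7.58%, 14.1% in either direction). The largest values were those of INSIG1 (-1.64 ± 0.58, adjusted p = 0.260), SQLE (-1.48 ± 0.50, adjusted p = 0.242) and HMGCS1 (-1.37 ± 0.48, adjusted p = 0.258), by edgeR. Everolimus replicate 2 enters here again: without it the median was -0.07, and without replicate 1 it was -1.05, with 5 members called (FADS2, HMGCS1, INSIG1, NSDHL and SQLE) among 123 of 22662 genes.

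**Figure D5:**
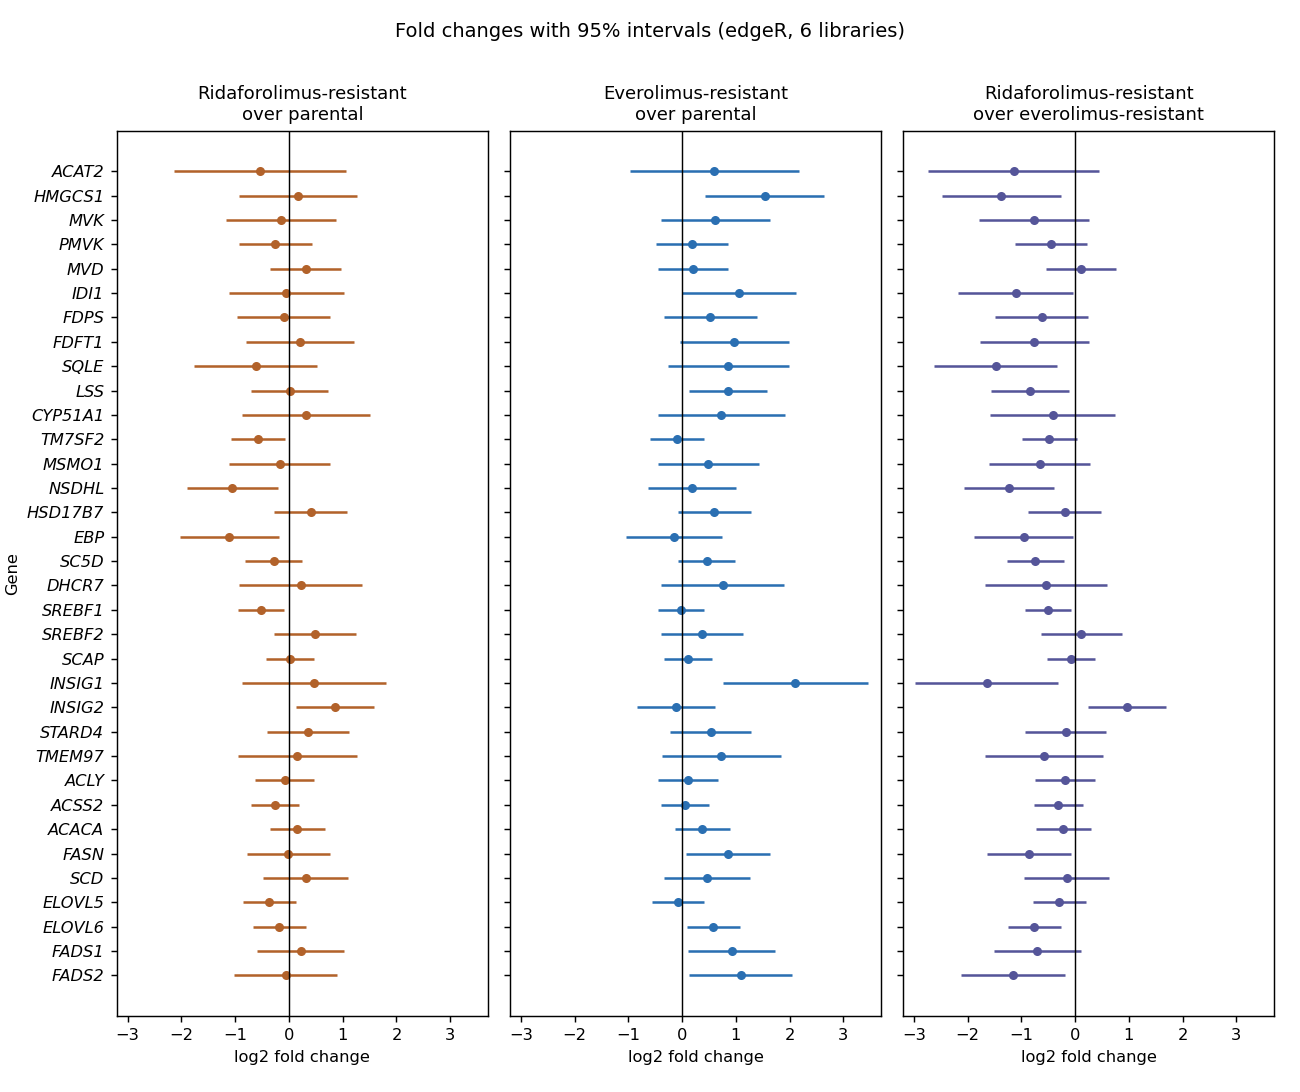
log2 fold change of each member with its 95% interval (edgeR, 6 libraries) for ridaforolimus over parental, everolimus over parental and ridaforolimus over everolimus. In the middle panel 29 of 34 points lie right of 0, and in the right panel 31 lie left of it.

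Other genes of the pathway are given by list. Everolimus replicate 2 exceeded replicate 1 for 6 of 13 genes of SREBP cleavage and sterol-dependent degradation (median gap -0.10) and for 12 of 16 other lipogenic enzymes and SREBP targets (median gap 0.50), against 47.5% of all genes (median gap -0.03). Of the 13, 4 were above 0 in the everolimus line (median -0.14) and 7 in the ridaforolimus line (median 0.08). EdgeR called 0 in either, and 0 and 1 had an unadjusted p under 0.05 (background 8.79% and 14.5%). DESeq2 called 0 and 1 (RNF139, lower, adjusted p = 0.00632, background 1.33% lower in the ridaforolimus line). RNF139, a ubiquitin ligase known to act on SREBP precursors, had 8.84 and 9.35 CPM in the ridaforolimus, 19.1 and 15.2 CPM in the everolimus and 20.0 and 19.7 CPM in the parental libraries (-1.13 ± 0.23 for ridaforolimus over parental, adjusted p = 0.0995, edgeR). Of the 16 lipogenic genes, 9 were above 0 in the everolimus line (median 0.03) and 8 in the ridaforolimus line (median 0.01). Of these, 0 were called by edgeR or DESeq2 in either, and 1 in each had an unadjusted p under 0.05 (background 8.79% and 14.5%). ME1, the malic enzyme that supplies NADPH, had 64.6 and 45.6 CPM in the ridaforolimus, 31.0 and 31.3 CPM in the everolimus and 39.1 and 44.8 CPM in the parental libraries, and its replicates in the everolimus line were close.

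Genes of the sterol sensor LXR, which acts when sterols are plentiful, included a called difference between the lines. NR1H3, which encodes LXR-alpha, had 9.53 and 10.96 CPM in the ridaforolimus, 31.8 and 25.6 CPM in the everolimus and 15.1 and 14.9 CPM in the parental libraries. The 3 groups did not overlap, and ridaforolimus over everolimus NR1H3 fell by 1.49 on the log2 scale (SE 0.23, adjusted p = 0.0371, edgeR). The call held in 6 of 14 other settings, with adjusted p up to 0.132. ABCA1, the LXR target that exports cholesterol, had 54.5 and 165 CPM in the ridaforolimus, 185 and 49.0 CPM in the everolimus and 228 and 187 CPM in the parental libraries. Its lowest libraries were everolimus replicate 2 and ridaforolimus replicate 1, where the members' median centred log2 CPM was 0.83 and 0.03. In parental replicate 2, where ABCA1 had 187 CPM, the members' median was -0.0023, close to that of ridaforolimus replicate 1. In everolimus replicate 2 the LXR list had a median of 0.19, with 6 of 9 genes above their mean over the 6 libraries. Of the 9 tested genes of this list 7 were above 0 in the everolimus line (median 0.18) and 2 in the ridaforolimus line (median -0.10). Against parental cells 0 were called by edgeR or DESeq2 in either, and 1 in each had an unadjusted p under 0.05 (background 8.79% and 14.5%).

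Sterol uptake, transport and esterification held the other called gene. GRAMD1B, which encodes the Aster-B protein that moves sterol from the plasma membrane to the endoplasmic reticulum, had 7.32 and 14.5 CPM in the ridaforolimus, 0.145 and 0.595 CPM in the everolimus and 1.22 and 1.13 CPM in the parental libraries. These rest on 96 and 198 counts in the ridaforolimus, 2 and 9 in the everolimus and 16 and 16 in the parental libraries. GRAMD1B rose by 4.82 ± 0.60 on the log2 scale in ridaforolimus over everolimus (adjusted p = 0.0183, edgeR, called in 12 of 14 other settings), and the value over parental was 3.20 ± 0.52 (adjusted p = 0.0568, with an adjusted p under 0.05 in 6 of 14 other settings). NPC2, which hands cholesterol out of lysosomes, had 56.9 and 60.9 CPM in the ridaforolimus, 104 and 107 CPM in the everolimus and 69.2 and 67.3 CPM in the parental libraries. Its replicates lay close in every group, and the value for ridaforolimus over everolimus was -0.84 ± 0.17 (adjusted p = 0.0786 by edgeR and 0.00613 by DESeq2). Of the 14 tested genes of this list, 6 were above 0 in the everolimus line (median -0.05) and 8 in the ridaforolimus line (median 0.11). Against parental cells edgeR called 0 in either, and 4 and 3 had an unadjusted p under 0.05 (background 8.79% and 14.5%). DESeq2 called 0 in the everolimus line and 1, higher, in the ridaforolimus line (background 1.37%). Between the lines DESeq2 called 2 higher and 1 lower (background 1.79% and 1.31%).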

How the data were processed

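The deposited values are raw counts for each Ensembl gene in each library, not normalised or pooled by the authors. The tools HTSeq 0.13.5, STAR 2.7.9a, DESeq2 and Trim Galore 0.6.6 are listed with GRCh38, without roles, per the submitters' processing notes. The kit was TruSeq Stranded mRNA, per the labels' protocols. How strand was treated in counting, and with which annotation, is not given in the sources used. By GENCODE 29, which gave all positions, 12 members share exon bases with another tested gene, 3 of them (IDI1, FDPS and TMEM97) over 10% of their exon bases, so those counts are uncertain.

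Counts were fitted with edgeR 4.0.16 in R 4.3.3 (TMM, filterByExpr by group, quasi-likelihood test, two-sided, 6 libraries, 3 residual degrees of freedom), with Benjamini-Hochberg adjustment over 21223 genes and a threshold of 0.05. Log2 CPM used a prior count of 2. DESeq2 1.42.0 and limma 3.58.1 (voom) were alternatives. The fitting was tested on simulated data for everolimus over parental. It recovered 10.5% of 2-fold changes and 88.4% of 8-fold changes, with 9.4 false calls, so true changes of 2-fold would mostly go uncalled. Both lines share the parental libraries. Replicates of a group differed by more than sampling noise (chi-square per degree of freedom 34.8 in the ridaforolimus, 37.3 in the everolimus and 14.7 in the parental group).

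The members and lists were chosen with earlier results of these data known. Members were described per library by fold change at a mean of at least 10 CPM, and other lists by called genes and the largest non-overlapping differences, of which some are given. The values of 1 gene of the list of SREBP cleavage and degradation are not reported here.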

Additional observations from a re-analysis of the deposited data

Results flagged for a closer look

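Between the resistant lines, 158 of 21223 genes tested (0.744%) differed by the test of the difference itself (edgeR, ridaforolimus over everolimus, 2 libraries each). Of these, 0 were members and 4 were genes of the other lists described here. NR1H3 (LXR-alpha) stood at -1.49 (adjusted p = 0.0371), lower in 2 of 2 ridaforolimus libraries. GRAMD1B (Aster-B) stood at 4.82 (adjusted p = 0.0183), higher in 2 of 2. MSN, moesin, a marker of the mesenchymal line, had 1436 and 1616 CPM in the ridaforolimus and 362 and 589 CPM in the everolimus libraries. Its log2 fold change was 1.68 (adjusted p = 0.0403, edgeR), a call that held in 7 of 14 other settings. MSN lies on chromosome X between 60 and 90 Mb, where the median of 96 genes was 1.44, with 2.08% below 0. The part of these neighbours in the value of MSN was not tested. GATA3, a luminal transcription factor, had 0.915 and 0.950 CPM in the ridaforolimus and 3.91 and 5.88 CPM in the everolimus libraries, a log2 fold change of -2.38 (adjusted p = 0.0403), which held in 5 of 13 other settings.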

How the results depend on the processing

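Of the members, 0 were called in each comparison by edgeR, and this count changed in few settings. In everolimus over parental, DESeq2 called 1 (INSIG1). Without a filter on low counts (40833 genes tested) 8 were called in everolimus over parental, 2 in ridaforolimus over parental (EBP and NSDHL) and 11 in ridaforolimus over everolimus. Leaving out single libraries gave 0 to 0 calls in both comparisons with parental cells and 0 to 5 between the lines, the 5 without everolimus replicate 1, where 123 of 22662 genes were called. A lone library was then assumed to vary like the other groups. The median log2 fold change ranged from -0.054 to 0.92 in everolimus over parental and from -0.17 to 0.17 in ridaforolimus over parental. Between the lines it ranged from -1.05 to -0.068. In the first and last comparison both ends came from leaving out an everolimus library. With everolimus replicate 2 left out the median was -0.054 in everolimus over parental and -0.068 in ridaforolimus over everolimus. The cause was not tested. Genes called over the whole table moved from 1, 68 and 158 to 493, 1195 and 1362 without the filter and to 150, 574 and 657 with DESeq2.

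No label says whether a replicate number marks a shared batch or day. The deviations of same-numbered libraries from their group means correlated across 10300 genes at 0.51 (everolimus and parental), -0.38 (ridaforolimus and parental) and -0.36 (ridaforolimus and everolimus), so the numbers were not used to pair the libraries. With the replicate block the members' medians were 0.46, 0.01 and -0.51, 0 members were called, and 0, 28 and 49 genes. With the ridaforolimus numbers crossed, an alternative chosen after seeing the data, 150, 814 and 1044 genes were called, and 0, 0 and 1 members.

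Depth limits CYP51A1 most, with 32 to 115 counts a library, and the 2 libraries a group limit every interval (for INSIG1, everolimus over parental, 0.76 to 3.46).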

Other observations

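Genes of the branches that use isoprenoids outside sterol synthesis were higher in everolimus replicate 2 than in replicate 1 for 10 of 15 (median gap 0.14 on the log2 scale), against 7 of 7 mevalonate genes (median gap 1.42); the difference between the lists was not tested. Of the 15, 7 were above 0 in the everolimus line over parental (median -0.05) and 4 in the ridaforolimus line over parental (median -0.12). EdgeR called 0 in either, with 2 and 1 at an unadjusted p under 0.05 (background 8.79% and 14.5%). RABGGTB, a subunit of the enzyme that attaches geranylgeranyl groups to Rab proteins, had 114 and 103 CPM in the ridaforolimus, 118 and 164 CPM in the everolimus and 80.4 and 99.2 CPM in the parental libraries. NUS1, a subunit of the dolichol-making transferase, had 71.3 and 56.4 CPM in the ridaforolimus, 73.5 and 77.5 CPM in the everolimus and 87.3 and 97.8 CPM in the parental libraries. Its other subunit DHDDS had 37.2 and 37.3 CPM in the ridaforolimus, 36.7 and 42.0 CPM in the everolimus and 45.8 and 48.5 CPM in the parental libraries. Both resistant lines lay below both parental libraries for NUS1 and DHDDS, and both were compared with the same 2 parental libraries. Of the 15, 6 lay below both parental libraries in the everolimus line and 5 in the ridaforolimus line (background 20.5% and 24.3%). In each line 2 lay above them (background 20.6% and 25.1%).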
